A study of Mus musculus with 24 samples.

Results

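The Cyp2b and Cyp2a genes of mouse chromosome 7 encode cytochrome P450 enzymes of the liver. The 7 genes described here (Cyp2b9, Cyp2b10, Cyp2b13, Cyp2a4, Cyp2a5, Cyp2a12 and Cyp2a22) were taken by gene symbol from a count table of 55421 genes, with no threshold on any value. They were followed in hepatocytes, the parenchymal cells that carry out most liver metabolism, of 24 male mice in a design of age by diet. Young mice (6 months by the labels, substrain C57BL/6N) and old mice (24 months, substrain C57BL/6J) ate a normal diet (ND) or a high-fat diet with 60% of its energy from fat (HFD) for 9 weeks. The labels describe the ND as a chow and the study's methods describe it as a defined diet low in fat, so HFD against ND may compare diets that differ in more than fat, and the study's text also gives other ages than the labels. This gave 6 mice in each of YND, YHFD, OND and OHFD, in which Y and O stand for young and old. No mouse carried a transgene or received a drug by the labels. Because every young mouse was C57BL/6N and every old mouse C57BL/6J, age and substrain cannot be told apart, and "old" and "young" below name the groups only. Livers were digested by perfusion, hepatocytes were purified, and polyA RNA was sequenced. The labels place the mice in 2 batches, without saying which step they refer to. Each batch held 3 mice of each group, except that OND had 2 mice in batch 1 and 4 in batch 2.

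Cytochrome P450 enzymes sit in the endoplasmic reticulum and insert oxygen into drugs, steroids and other lipophilic molecules, with electrons from the reductase Por. Cyp2b10 is the textbook target of the nuclear receptor CAR (Nr1i3), which drugs such as phenobarbital activate. In adult mouse liver Cyp2b9, Cyp2b13 and Cyp2a4 are known as genes with more transcript in females than in males, a pattern set by the rhythm of growth hormone release. Cyp2a5 hydroxylates coumarin and nicotine, and Cyp2a4, its near copy, hydroxylates steroids.

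The 7 genes lie within 1.14 Mb, from 25897620 to 27037375 of chromosome 7 (GRCm38, the build also called mm10). In order along the chromosome they are Cyp2b10 (ENSMUSG00000030483, 25897620 to 25926624), Cyp2b13 (ENSMUSG00000040583, 26061497 to 26096197), Cyp2b9 (ENSMUSG00000040660, 26173411 to 26210661) and Cyp2a4 (ENSMUSG00000074254, 26307169 to 26315088). They are followed by Cyp2a5 (ENSMUSG00000005547, 26835305 to 26843548), Cyp2a22 (ENSMUSG00000091867, 26931631 to 26939384) and Cyp2a12 (ENSMUSG00000060407, 27029081 to 27037375). Cyp2a22 is on the minus strand and the others are on the plus strand. Several are near copies of each other. Transcripts of Cyp2a4 and Cyp2a5 were 98.3% identical over their aligned bases, those of Cyp2a12 and Cyp2a22 were 96.7% identical, and those of Cyp2b9 and Cyp2b13 were 91.9% identical. The share of 50-base windows of a transcript that also occurred in a transcript of another gene ran from 9.69% in Cyp2b10 to 40.8% in Cyp2a5. Reads from such windows could have been dropped or given to a copy, so the level of the rarer copy of a pair is uncertain. Cyp2a4 also shares 61 exon bases with Gm42375, a gene on the opposite strand.

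The sequence before the start of each gene is shown because the copies differ in level far more than in this sequence. The stretches below are the 150 bases upstream of the start given by RefSeq (GRCm38.p6), read 5′ to 3′ on the strand of the gene. Capitals mark matches to TTGCNNAA (the type bound by C/EBP and PAR bZIP factors), CAAAGNCC (the type bound by Hnf4a) or TATAAA (the TATA box). The single capitals in Cyp2b9 and Cyp2b13 mark the base at which these stretches differ.
Cyp2b9: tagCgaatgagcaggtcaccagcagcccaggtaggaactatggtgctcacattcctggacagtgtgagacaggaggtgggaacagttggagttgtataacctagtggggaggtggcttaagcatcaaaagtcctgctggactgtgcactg
Cyp2b13: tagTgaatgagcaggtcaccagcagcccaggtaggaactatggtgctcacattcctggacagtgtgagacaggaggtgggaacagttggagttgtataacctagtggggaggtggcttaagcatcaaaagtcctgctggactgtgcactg
Cyp2b10: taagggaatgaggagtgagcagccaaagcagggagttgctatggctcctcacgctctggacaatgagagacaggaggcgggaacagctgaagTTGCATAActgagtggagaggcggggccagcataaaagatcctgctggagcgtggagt
Cyp2a4: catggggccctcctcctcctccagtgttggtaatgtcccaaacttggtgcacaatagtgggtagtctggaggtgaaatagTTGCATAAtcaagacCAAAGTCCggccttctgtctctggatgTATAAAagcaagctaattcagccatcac
Cyp2a5: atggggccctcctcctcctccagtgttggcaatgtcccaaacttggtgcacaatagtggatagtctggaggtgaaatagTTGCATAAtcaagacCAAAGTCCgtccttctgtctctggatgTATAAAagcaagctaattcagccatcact
Cyp2a12: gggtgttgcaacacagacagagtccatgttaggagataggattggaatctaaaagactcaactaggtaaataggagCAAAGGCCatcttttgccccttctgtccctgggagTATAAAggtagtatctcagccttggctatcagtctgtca
Cyp2a22: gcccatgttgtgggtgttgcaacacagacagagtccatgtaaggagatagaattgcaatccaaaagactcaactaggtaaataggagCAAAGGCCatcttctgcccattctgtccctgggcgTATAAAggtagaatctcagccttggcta
They lie at chr7:26173259-26173408 (Cyp2b9, plus strand), chr7:26061345-26061494 (Cyp2b13, plus), chr7:25897508-25897657 (Cyp2b10, plus) and chr7:26307042-26307191 (Cyp2a4, plus). The others are at chr7:26835189-26835338 (Cyp2a5, plus), chr7:27028940-27029089 (Cyp2a12, plus) and chr7:26939387-26939536 (Cyp2a22, minus). The gene start of the annotation used for positions was up to 38 bases upstream of that of RefSeq for Cyp2b10, Cyp2a4, Cyp2a5 and Cyp2a12 and 2 bases downstream of it for the other genes.

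Over 250 upstream bases, Cyp2b9 and Cyp2b13 differed at 2 positions, T48C and C104T (the Cyp2b9 base, the position counted from 1 at the most upstream base, then the Cyp2b13 base). Cyp2a4 and Cyp2a5 differed at 4 of 249 aligned bases, Cyp2a12 and Cyp2a22 at 24 of 239, and Cyp2b9 and Cyp2b10 at 58 of 240. All motifs were searched on both strands of these 250 bases. TTGCNNAA was found in 5 of the 7 genes and in 9.56% of the 32851 promoters of the same length. Cyp2b10, Cyp2a4 and Cyp2a5 carried it as TTGCATAA within 71 bases of the start, and Cyp2b9 and Cyp2b13 only as TTGCCAAA from base -180 to base -173, outside the printed stretch. At the place of the Cyp2b10 match both of them read TTGTATAA, a C4T difference counted from the first base of the match. CAAAGNCC was found in the 4 Cyp2a genes and in 5.15% of all promoters, as was TATAAA, found in the same 4 genes and in 12.4% of all promoters. TTCNNNGAA, the type bound by Stat5, was in none of the 7 and in 7.02% of all promoters. Because several of these promoters are near copies, their matches are not independent, and the counts are not read against the shares. These matches are letters in a window of the reference sequence and no measurement of binding.

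Total counts per mouse ran from 9200332 to 22185069, and every OHFD mouse had a smaller total than any mouse of the other groups. Levels are given as CPM, counts scaled to a library of fixed size after edgeR's TMM normalisation. Differences are log2 fold changes with their standard errors (SE), from 1 edgeR quasi-likelihood model that held the 24 mice, their groups and the batch of the labels. The 95% intervals are approximate ones, taken from the SE. Calls are Benjamini-Hochberg adjusted p under 0.05 over 13583 tested genes. The 7 genes all passed the count filter, Cyp2b13 through the groups in which it was detected, since it had 10 or more counts in 0 YND, 3 YHFD, 3 OND and 6 OHFD mice. Cyp2b9 and Cyp2a4 had 10 or more counts in only 1 YND mouse each and so also passed through the groups in which they were higher. The preparations carried the hepatocyte markers (6 of 6 tested, 0 called between diets or between ages within a diet, and Apoa1 higher and Cps1 lower between OHFD and YND) and also RNA of other cells. The summed level of 9 leukocyte markers was 2.13 to 31.1 CPM in YND, 11.9 to 146 in YHFD, 31.3 to 534 in OND and 30.7 to 379 in OHFD, with Cd79a at 0 counts in all YND mice. In these bulk samples fewer cells that make a transcript and less transcript per cell cannot be told apart. OND replicate 4 stood apart, with the lowest summed hepatocyte markers of all mice (49543 CPM), the highest leukocyte markers and the lowest OND level of each of the 7 genes. Without it, the number of the 7 genes called was 6 in place of 5 for YHFD against YND, where the share of all tested genes also rose from 3.5% to 4.95%, and the same in the other 5 comparisons.

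Cyp2b9 was nearly absent in YND and was raised by HFD in both ages. Its lowest, median and highest levels were 0.0473, 0.186 and 0.802 CPM in YND and 10.2, 71.3 and 156 CPM in YHFD. In OND they were 2.21, 5.96 and 19.1 CPM, and in OHFD 19.96, 52.2 and 149 CPM. Every HFD mouse lay above every ND mouse of its own age, and every OND mouse lay above every YND mouse. The YHFD to YND difference was 7.67 on the log2 scale (SE 0.81, adjusted p = 5.75e-06, edgeR quasi-likelihood test), and it was 9.11 in batch 1 and 6.25 in batch 2. Only 1 YND mouse had 10 or more counts, so Cyp2b9 passed the count filter through the other groups, which fixed the direction, and its differences from YND and its interaction are given as a description. The OHFD to OND difference was 2.54 (SE 0.60, adjusted p = 0.0244 by the same edgeR test), 4.56 in batch 1 and 1.74 in batch 2. Leaving out OND replicate 1 gave 2.16 (adjusted p = 0.0694, edgeR) and leaving out OND replicate 2 gave 2.25 (adjusted p = 0.0832, edgeR), which ended this call. So did a fit of the OHFD and OND mice only (2.83, adjusted p = 0.164, edgeR).

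Cyp2b10, the CAR target, moved the other way. Its lowest, median and highest levels were 5.33, 6.80 and 12.6 CPM in YND and 0.415, 0.703 and 2.47 CPM in YHFD. In OND they were 0.654, 4.23 and 15.4 CPM, and in OHFD 0.390, 0.700 and 2.01 CPM. All YHFD mice were below all YND mice, whereas OND replicate 4 lay within the range of OHFD. The difference was -3.05 (SE 0.52, adjusted p = 0.00191, edgeR quasi-likelihood test) between YHFD and YND, with -2.53 in batch 1 and -3.71 in batch 2. Between OHFD and OND it was -2.88 (SE 0.54, adjusted p = 0.00602, edgeR), with -2.32 in batch 1 and -3.29 in batch 2. Limma on log2(FPKM + 1) ended both calls (adjusted p = 0.0811 in young and 0.112 in old mice), and a fit of the OHFD and OND mice only ended the second (-2.81, adjusted p = 0.192, edgeR). Without OND replicate 5, the OND mouse with the most Cyp2b10, the second value was -2.25 and was called.

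Cyp2b13 had no count in any YND mouse. Its lowest, median and highest levels were 0, 0.828 and 15.9 CPM in YHFD, 0, 0.654 and 1.57 CPM in OND, and 3.22, 5.65 and 32.5 CPM in OHFD. It was detected in 5 of 6 YHFD, 5 of 6 OND and 6 of 6 OHFD mice, and OHFD did not overlap with OND. Against a floor of 3 counts over the YND group, 0.0283 CPM, the pooled level was at least 116-fold higher in YHFD, at least 24.2-fold higher in OND and at least 457-fold higher in OHFD. Of the 342 YHFD counts 281 came from replicate 2, and without that mouse the YHFD level was at least 25-fold higher. In edgeR's test Cyp2b13 was called in all 3 comparisons with YND (adjusted p = 0.0196 for YHFD, 0.0236 for OND and 0.000342 for OHFD). With YND at 0 and the gene kept through the other groups, the direction of these values was fixed, and they are given as a description. Without YND replicate 1 the adjusted p in edgeR was 0.0545 for YHFD and 0.0523 for OND, and without YND replicate 2 it was 0.0552 for YHFD. The OHFD to OND difference of 3.16 (SE 0.98) had an adjusted p of 0.0761 in edgeR's test and was not called, with 5.78 in batch 1 and 2.54 in batch 2. Without YHFD replicate 2, a mouse outside that contrast that enters the fit, it was 3.40 (adjusted p = 0.0286, edgeR). It was also called by limma on log2(FPKM + 1) and log2(FPKM + 0.1) (adjusted p = 0.0106 and 0.0216). The calls against YND ended in limma for YHFD (adjusted p = 0.695 and 0.520) and for OND (0.673 and 0.401), and without a batch term for OND (adjusted p = 0.0859, edgeR).

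**Figure D1:**
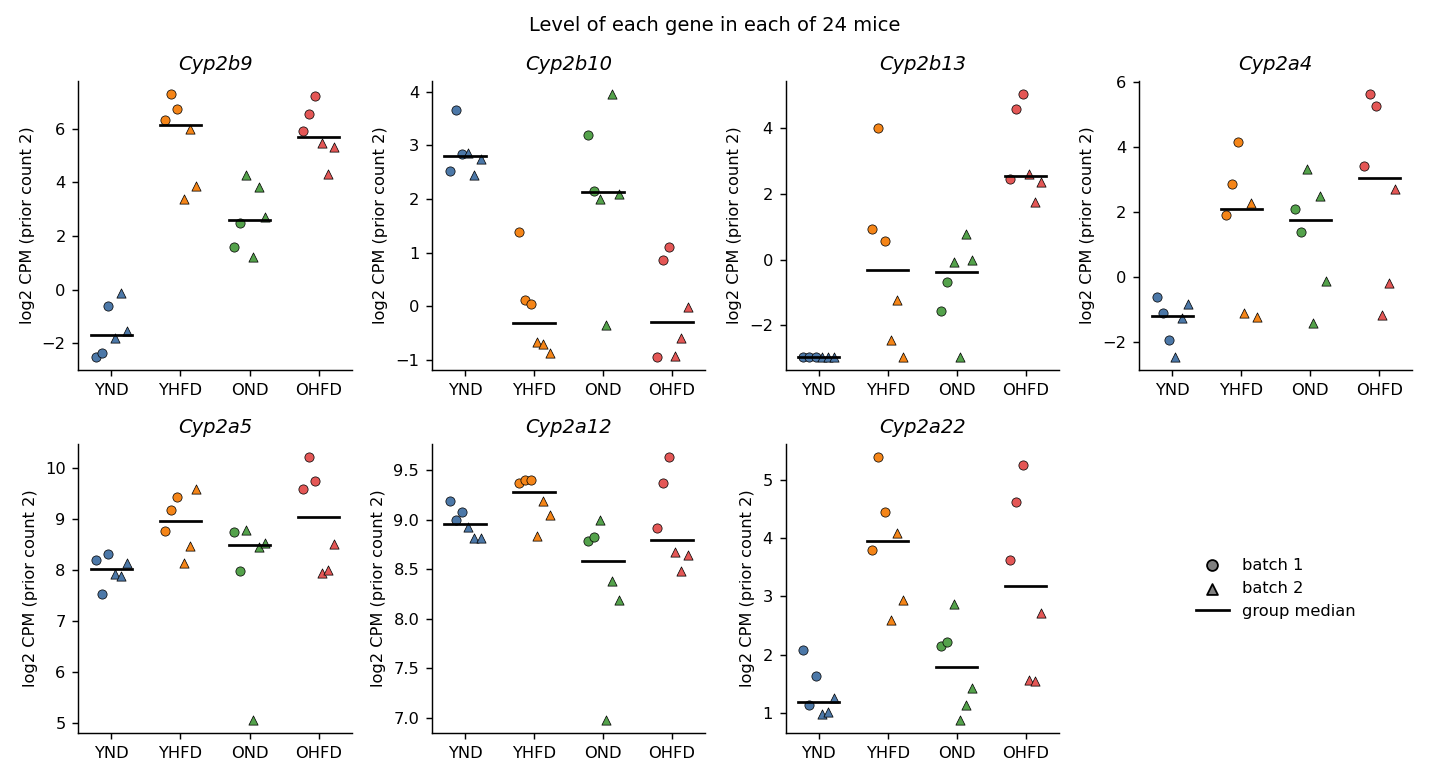
Level of each of the 7 genes as log2 CPM (prior count 2, vertical axis) in each mouse of YND, YHFD, OND and OHFD, with circles for batch 1, triangles for batch 2 and a bar at the group median. Cyp2b9 lies above YND in all other mice, Cyp2b10 falls on HFD in both ages, Cyp2b13 sits at its lowest value in all 6 YND mice, and 1 OND mouse lies far below the others for Cyp2a5 and Cyp2a12.

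The minor Cyp2a genes, Cyp2a4 and Cyp2a22, followed Cyp2b9 in young mice and varied widely within each HFD group. Cyp2a4 had lowest, median and highest levels of 0.0529, 0.311 and 0.520 CPM in YND and 0.297, 4.17 and 17.7 CPM in YHFD. In OND they were 0.245, 3.32 and 9.93 CPM and in OHFD 0.316, 8.43 and 49.1 CPM. All 4 groups overlapped. The YHFD to YND difference was 3.92 (SE 1.04, adjusted p = 0.0402, edgeR quasi-likelihood test), and leaving out any of 8 mice in turn ended this call, with an adjusted p of at most 0.101. These mice were YND replicates 1 to 5 and YHFD replicates 1, 3 and 5. As only 1 YND mouse had 10 or more counts, Cyp2a4 also passed the count filter through the other groups, its values against YND are a description, and it was not tested in a fit of the YND and YHFD mice only. The call also ended without a batch term (adjusted p = 0.0634, edgeR) and in limma on log2(FPKM + 1) and log2(FPKM + 0.1) (adjusted p = 0.665 and 0.254). The OHFD to OND difference of 0.94 (SE 0.91, adjusted p = 0.585, edgeR) was not called, and it was 3.24 in batch 1 and -0.72 in batch 2.

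Cyp2a22 had lowest, median and highest levels of 1.85, 2.16 and 4.11 CPM in YND and 5.93, 15.4 and 42.0 CPM in YHFD, and these groups did not overlap. In OND they were 1.72, 3.44 and 7.22 CPM and in OHFD 2.79, 9.36 and 38.2 CPM, with overlap. Young mice showed a difference on HFD of 2.697 (SE 0.45, adjusted p = 0.00154, edgeR quasi-likelihood test), made up of 3.07 in the first batch and 2.36 in the second. For old mice the value was 1.34 (SE 0.46, adjusted p = 0.0903, edgeR), 2.45 in the first batch and 0.25 in the second. It was not called, but was called without OND replicate 3 (1.82, adjusted p = 0.0217, edgeR) or without OHFD replicate 5 (1.58, adjusted p = 0.0440, edgeR), by DESeq2 (1.34, adjusted p = 0.0272), and by edgeR without a count filter (1.31, adjusted p = 7.15e-07).

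The major Cyp2a genes, Cyp2a5 and Cyp2a12, changed little beside these. Cyp2a5 had lowest, median and highest levels of 186, 262 and 322 CPM in YND, 284, 509 and 777 CPM in YHFD, 33.5, 362 and 445 CPM in OND, and 247, 569 and 1198 CPM in OHFD, and the groups overlapped. Its difference on HFD was 0.98 (SE 0.40, adjusted p = 0.152, edgeR quasi-likelihood test) in young and 0.74 (SE 0.41, adjusted p = 0.297, edgeR) in old mice, and neither was called. The first was called without OND replicate 4, a mouse outside the contrast that enters the fit (1.01, adjusted p = 0.0463, edgeR), and with only the YND and YHFD mice in the fit (1.02, adjusted p = 0.00775, edgeR). Without a count filter both were called (0.98, adjusted p = 1.28e-06, and 0.70, adjusted p = 0.00544, edgeR). Cyp2a12 had lowest, median and highest levels of 450, 499 and 583 CPM in YND, 455, 623 and 679 CPM in YHFD, 126, 388 and 511 CPM in OND, and 359, 446 and 795 CPM in OHFD. All 4 groups overlapped for Cyp2a12, and none of its 6 comparisons was called. With only the YND and YHFD mice in the fit, where 18.6% of tested genes were called, it was called higher in YHFD (0.27, adjusted p = 0.0253, edgeR). Its young HFD difference had a 95% interval from -0.15 to 0.63 on the log2 scale.

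Counted over the family, 4 of the 7 genes were higher and 1 was lower in YHFD than in YND, where 1.91% of all tested genes were called higher and 1.59% lower. Since Cyp2b9, Cyp2b13 and Cyp2a4 passed the count filter only through groups other than YND, this count is a description and is not read against those shares. The groups did not overlap for 2 higher genes (Cyp2b9 and Cyp2a22) and 1 lower gene (Cyp2b10), where this held for 1.77% of tested genes higher and 3.06% lower. With Cyp2b9 among them, the count of higher genes is likewise not read against its share. Between OHFD and OND, 1 gene was called higher and 1 lower, against 1.37% and 1.64% of tested genes. The groups did not overlap for 2 higher genes, Cyp2b9 and Cyp2b13, and for 0 lower genes, where this held for 0.471% and 0.788% of tested genes. Between YHFD and YND 2 of 7 tested leukocyte markers and 1 of 6 markers each of Kupffer, sinusoidal endothelial and stellate cells were also called higher, and their part in the 5 calls was not tested. Between OHFD and OND 0 of the markers of these cells or of cholangiocytes were called.

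**Figure D2:**
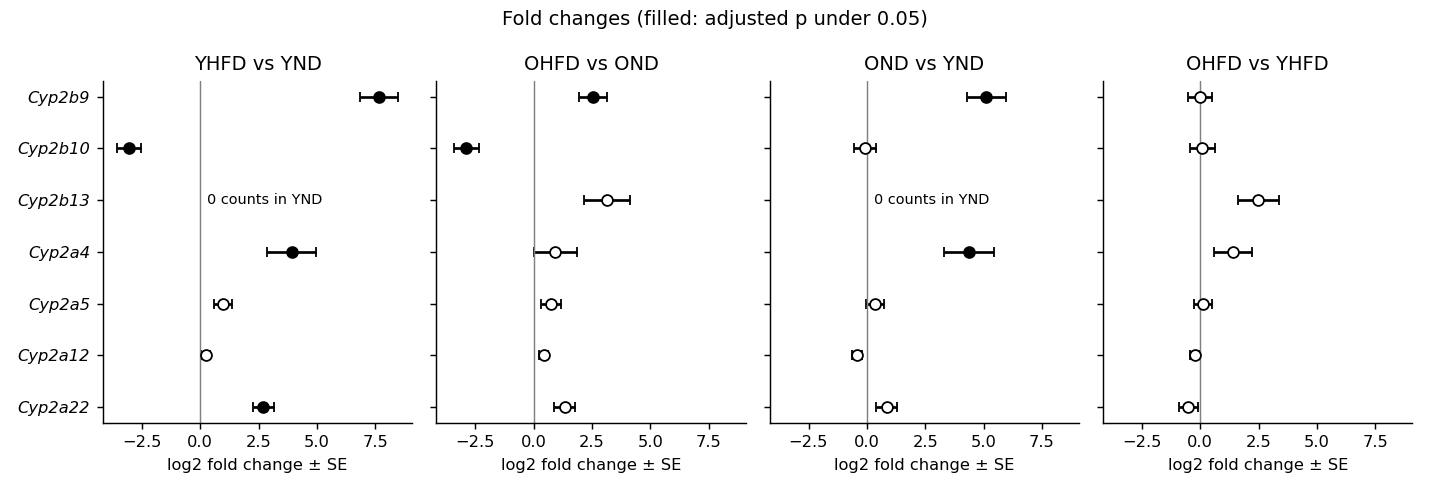
Log2 fold change with its standard error (horizontal axis) of each gene in 4 comparisons from edgeR's test, with filled points for an adjusted p under 0.05. Both diet comparisons show Cyp2b9 to the right and Cyp2b10 to the left of 0, and OHFD against YHFD has no filled point. Cyp2b13 is left out where YND, with 0 counts, is the comparator.

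OND was next compared with YND, and the values of Cyp2b9 and Cyp2a4 are again a description. Cyp2b9 was higher in OND than in YND by 5.12 on the log2 scale (SE 0.82, adjusted p = 0.00177, edgeR quasi-likelihood test), with 4.35 in batch 1 and 4.75 in batch 2. Cyp2a4 was higher by 4.39 (SE 1.07, adjusted p = 0.0128, edgeR), with 3.25 in batch 1 and 3.98 in batch 2. The Cyp2a4 call ended without a batch term (adjusted p = 0.0589, edgeR), and in limma on log2(FPKM + 1) and log2(FPKM + 0.1) neither Cyp2a4 (adjusted p = 0.563 and 0.258) nor Cyp2b9 (adjusted p = 0.724 and 0.153) was called. Without OND replicate 3 the Cyp2a4 value was 3.55 (adjusted p = 0.0416, edgeR). With Cyp2b13, 3 of the 7 genes were called higher and 0 lower, where 7.26% of tested genes were called higher and 1.24% lower. All 3 passed the count filter only through groups other than YND, so nothing is read from that count, and in a fit of the OND and YND mice only, in which Cyp2b13 and Cyp2a4 were not tested, 1 was called (Cyp2b9). The groups did not overlap for 1 higher gene, Cyp2b9, and for 0 lower genes (2.08% and 1.72% of tested genes). As Cyp2b9 passed the count filter through other groups, nothing is read from this higher gene either. Cyp2b10 differed by -0.09 (SE 0.47, adjusted p = 0.936, edgeR), with a 95% interval from -1.01 to 0.84. In the same comparison 7 of the 7 tested leukocyte markers and 6 of 6 Kupffer cell markers were called higher in OND, as were 4 of 6 sinusoidal endothelial, 5 of 6 stellate and 0 of 2 cholangiocyte markers. Their part in the higher Cyp2b9, Cyp2b13 and Cyp2a4 was not tested.

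Between old and young mice on HFD, OHFD against YHFD, 0 of the 7 genes were called by edgeR (2.24% of tested genes in either direction), and the groups overlapped for each of them (0.552% of tested genes lay apart higher and 0.25% lower). By limma 1 of the 7 was called on log2(FPKM + 1) and on log2(FPKM + 0.1), where 0.126% and 0.217% of all genes were, and without a count filter 2 were (3.82% of all genes). At an unadjusted p under 0.05 there was 1 in edgeR's test (2848 of the 13583 tested genes, 21%). It was Cyp2b13, also the gene called by limma, higher in OHFD by 2.48 (SE 0.87, unadjusted p = 0.00988, adjusted p = 0.123, edgeR quasi-likelihood test), with 1.65 in batch 1 and 5.22 in batch 2. Without YHFD replicate 2, the YHFD mouse with the most Cyp2b13, it was 4.15 (adjusted p = 0.0231, edgeR). For Cyp2b9 the difference was -0.02 (SE 0.53), with a 95% interval from -1.05 to 1.02. Between OHFD and YND, which differ in age and diet, 6 of the 7 were called (5 higher and 1 lower, where 17.3% and 12.9% of tested genes were), with Cyp2a12 the exception. As Cyp2b9, Cyp2b13 and Cyp2a4 passed the count filter only through groups other than YND, nothing is read from this count either. The groups did not overlap for Cyp2b9 and Cyp2b13, higher, and Cyp2b10, lower (2.99% and 4.27% of tested genes). For Cyp2b9 and Cyp2b13 this is again a description. In this comparison 7 of 7 leukocyte, 5 of 6 Kupffer, 6 of 6 sinusoidal endothelial, 4 of 6 stellate and 1 of 2 cholangiocyte markers were called higher, and their part in the 6 calls was not tested. Cyp2a5 was among them only narrowly (1.09, SE 0.41, adjusted p = 0.0449, edgeR), and leaving out any of 14 of the 24 mice ended its call. The lowest value of these fits was 0.87, without OHFD replicate 2. These comparisons share their groups with those above and are not independent of them.

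The diet effect of Cyp2b9 was smaller in old than in young mice by 5.14 on the log2 scale as fitted (age by diet interaction -5.14, SE 0.99, unadjusted p = 2.35e-05). The adjusted p in edgeR's quasi-likelihood test was 0.141 and the interaction was not called. It was -4.55 in batch 1 and -4.51 in batch 2. Of the 7 genes, 0 were called for the interaction by edgeR, as were 0.0% of all tested genes. At an unadjusted p under 0.05 there were 4 (9.18% of tested genes): Cyp2b9, Cyp2b13, Cyp2a4 and Cyp2a22. The first 3 passed the count filter through groups other than YND, with at most 14 counts in any YND mouse, so this count and their interactions are a description. DESeq2 called 1 of the 7, Cyp2b9 (-4.96, adjusted p = 0.00383), and 7 genes in all. For Cyp2b13 the fitted interaction rests on a group with 0 counts and is not interpreted.

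Between batches, the HFD mice differed in several of the genes, in old mice by more than the ND mice for Cyp2a22, Cyp2a4 and Cyp2a5. Mean Cyp2b9 was 114 CPM in the 3 YHFD mice of batch 1 and 29.3 CPM in the 3 of batch 2, and 101 and 34.8 CPM in OHFD. Mean Cyp2a22 was 25.9 and 10.1 CPM in YHFD, and 24.9 and 4.04 CPM in OHFD. Mean Cyp2a4 was 32.7 CPM in batch 1 and 2.49 CPM in batch 2 of OHFD, and mean Cyp2a5 was 944 and 290 CPM. In OND these means were 4.41 and 3.39 CPM for Cyp2a22, 3.32 and 4.12 CPM for Cyp2a4, and 343 and 301 CPM for Cyp2a5. Mean Cyp2b9 in OND was 4.16 CPM in batch 1 and 10.5 CPM in batch 2, the opposite order to OHFD. With 3 mice against 3, and 2 against 4 in OND, the batches were not tested against each other. The direction on HFD was the same in both batches for every gene in young mice and for Cyp2b9, Cyp2b10, Cyp2b13, Cyp2a12 and Cyp2a22 in old mice. In young mice the direction of Cyp2b13 was fixed by the 0 counts of YND. Cyp2b9 and Cyp2a4 also passed the count filter through groups other than YND, so for these genes the agreement is a description. Within batch 2 alone, 0 of the 7 were called between OHFD and OND and 1 (Cyp2b9) between YHFD and YND, where 0.112% and 0.0632% of tested genes were called. As above, the Cyp2b9 call against YND is a description.

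**Figure D3:**
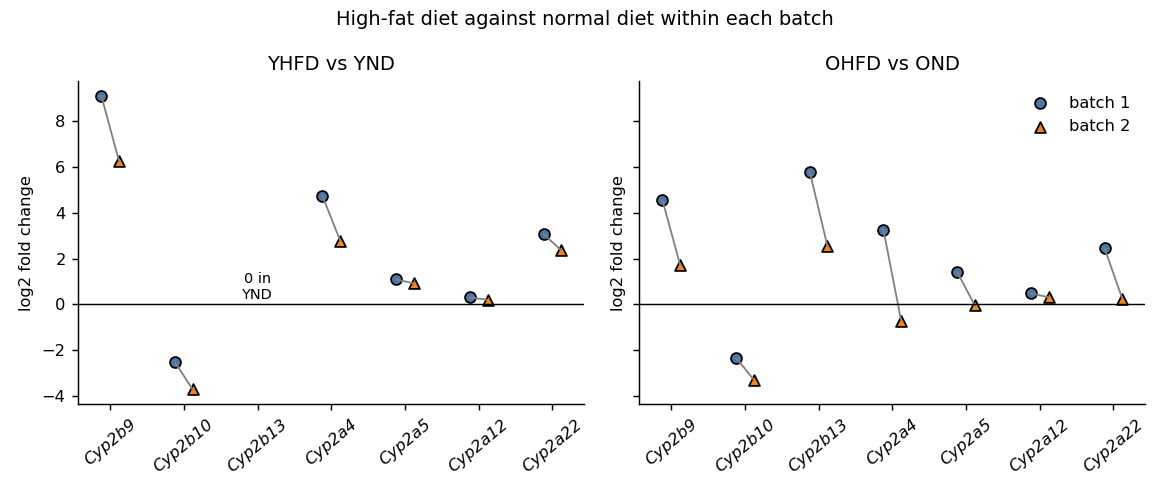
Log2 fold change of HFD over ND (vertical axis) in young (left) and old (right) mice, fitted within batch 1 (circles) and within batch 2 (triangles). The circles lie above the triangles for each gene shown, and for Cyp2a4 and Cyp2a5 in old mice the triangles are at or below 0.

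Levels of different genes were compared as CPM per kb of transcript. By group mean Cyp2a12 was first and Cyp2a5 second in YND, YHFD and OND. In OHFD their means were close, 308 ± 103 for Cyp2a12 and 307 ± 193 CPM per kb for Cyp2a5 (SD, n = 6), and their medians of 265 and 283 stood in the opposite order. In YND Cyp2a12 and Cyp2a5 stood at 299 ± 30.9 and 130 ± 24.2 CPM per kb (SD, n = 6) without overlap and together made nearly all of the summed level, 69.0% ± 3.60 and 29.7% ± 3.86. In the other 3 groups these neighbours overlapped. The third place changed with the group. It was held by Cyp2b10 in YND (3.84 ± 1.38 CPM per kb), clear of its neighbours, and by Cyp2b9 in YHFD (38.1 ± 29.6), OND (4.46 ± 3.60) and OHFD (36.3 ± 25.03). In these 3 groups Cyp2b9 overlapped with the gene that followed it, Cyp2a22 in YHFD, Cyp2b10 in OND (3.25 ± 2.72 CPM per kb) and Cyp2a4 in OHFD. Cyp2b10 was last in OHFD, at 0.512 ± 0.367 CPM per kb, and by mean also in YHFD, at 0.499 ± 0.405. In YHFD Cyp2b13 was above it in only 2 of 6 mice, and without replicate 2 the mean of Cyp2b13 was 0.373 CPM per kb, below the 0.499 of Cyp2b10. The lower places overlapped with their neighbours, apart from Cyp2a22 above Cyp2a4 in YND, Cyp2b9 above Cyp2b13 in YND, Cyp2a22 above Cyp2b13 in OND and Cyp2b13 above Cyp2b10 in OHFD.

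Cyp2b9 and Cyp2b10 exchanged places. The share of Cyp2b9 in the sum of both, per length, had a median of 2.73% in YND (0.543% to 13.3%), 98.2% in YHFD (95.4% to 99.4%), 58.9% in OND (24.8% to 83.5%) and 98.5% in OHFD (97.4% to 99.4%). Both HFD groups lay above all ND mice. Cyp2a4 stayed a minor part of its sum with Cyp2a5, with medians of 0.158% in YND, 1.17% in YHFD, 1.11% in OND and 1.76% in OHFD, and a highest value of 4.90%. Cyp2a22 likewise had medians of 0.428%, 2.29%, 0.915% and 1.91% of its sum with Cyp2a12. At such shares a small part of misplaced reads from the major copy would be visible in the minor copy.

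When the counts of the Cyp2b genes were summed before the fit, the sum was higher on HFD by 3.06 (SE 0.54, adjusted p = 0.00307, edgeR quasi-likelihood test) in young and by 1.95 (SE 0.54, adjusted p = 0.0470, edgeR) in old mice. Its OND to YND difference was 1.28 (SE 0.53, adjusted p = 0.143, edgeR) and was not called. The sum of Cyp2a4 and Cyp2a5 was called only between OHFD and YND (1.13, SE 0.41, adjusted p = 0.0411, edgeR).

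**Figure D4:**
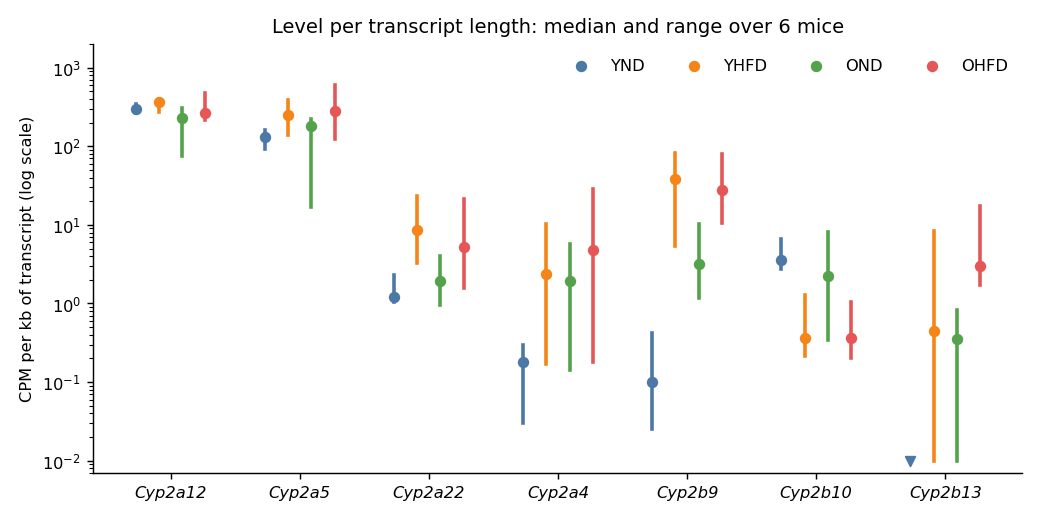
Level per transcript length (CPM per kb, logarithmic vertical axis) of each gene in the 4 groups, with a point at the median and a line from the lowest to the highest of 6 mice. Values below 0.01, among them all Cyp2b13 values in YND (marked by a triangle), are drawn at 0.01. Cyp2a12 and Cyp2a5 lie highest, and Cyp2b9 and Cyp2b10 change places between YND and the HFD groups.

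Within groups, after group and batch means were removed, the genes varied together to different degrees over the 24 mice. These correlations of log2 CPM residuals share libraries and depth and are given as descriptions. The highest were 0.82 between Cyp2a5 and Cyp2a12, 0.80 between Cyp2b9 and Cyp2b13, and 0.80 between Cyp2a4 and Cyp2a22 (Pearson's r), with Spearman's rho of 0.66, 0.82 and 0.81. The lowest was 0.17 between Cyp2b10 and Cyp2a22. Between Cyp2b10 and Cyp2a12 r was 0.61 and rho 0.41. Cyp2b9 and Cyp2b10, which moved in opposite directions on HFD, had r = 0.38 within groups. By the same measure over all tested genes, the genes most like Cyp2b9 were Pgd (r = 0.82), an enzyme of the pentose phosphate pathway, Cyp2b13 and Kdsr (0.80), and those most like Cyp2b13 were Cyp2j6 (0.81), Cyp2b9 and Cyp2c55 (0.75). For Cyp2b10 they were Sfxn5 (0.77), Il1rap (0.76) and Ces1f (0.74), and for Cyp2a4 Pgd (0.85), Gm19619 (0.83) and Cyp3a59 (0.81). Cyp2a5 was nearest to Gm32461 (0.88), Cyp3a25 (0.86) and Acaa1b (0.86), and Cyp2a12 to Ces1g (0.92), Gm18635 (0.90) and Pgrmc1 (0.88). Cyp2a22 was nearest to Gstm3 (0.85), Gm3776 (0.84) and H2-Q1 (0.82). Nearness within groups did not carry over to the diet in every case, since Cyp2c55 fell by 2.90 and Gstm3 by 2.12 on the log2 scale in OHFD against OND (adjusted p = 0.000475 and 0.0153, edgeR's quasi-likelihood test).

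The genes that share regulators with these P450 genes were followed in lists written from general knowledge. The shares of all tested genes called higher and lower, to be read beside the counts of each list, were 1.91% and 1.59% in YHFD against YND, 1.37% and 1.64% in OHFD against OND, 7.26% and 1.24% in OND against YND, and 17.3% and 12.9% in OHFD against YND. The first list held genes known to respond to CAR, as Cyp2b10 does. Of 19 tested, 4 were called lower and 0 higher in YHFD and 5 lower and 0 higher in OHFD against OND, with list medians of -0.25 and -0.32 beside 0.01 and -0.01 over all tested genes. Cyp3a11, a major drug-metabolising P450, was lower by -2.62 (adjusted p = 2.66e-07, edgeR quasi-likelihood test) in young and -2.36 (adjusted p = 4.10e-06, edgeR) in old mice. Cyp2c55 was lower by -2.61 and -2.90 (adjusted p = 0.000609 and 0.000475, edgeR). Ces2a, a carboxylesterase, was lower by -1.42 in young (adjusted p = 9.23e-05, edgeR), and Cyp2c29 by -1.29 in old mice (adjusted p = 0.00392, edgeR). Between OND and YND 1 of the 19 was called higher (Gadd45b, 1.74, adjusted p = 0.0416, edgeR) and 0 lower, and the list median was -0.31. In OHFD against YND 10 were lower and 0 higher, against YHFD 0 were called, and for the interaction 0 were called.

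Genes with more transcript in female than in male liver, as is known for Cyp2b9, Cyp2b13 and Cyp2a4, could be tested for only 6 of 16. Of these, 4 were called higher and 0 lower in YHFD, with a list median of 2.12 beside 0.01 over all tested genes. Atp6v0d2 was higher by 2.07 (adjusted p = 0.00573, edgeR quasi-likelihood test), Cyp17a1, a steroid hydroxylase, by 2.54 (adjusted p = 0.0112, edgeR) and Cyp4a14, a fatty acid hydroxylase also driven by PPAR alpha, by 2.16 (adjusted p = 0.0318, edgeR). Hao2, a peroxisomal oxidase, was the other (3.88, adjusted p = 0.0357, edgeR). It had at most 0.401 CPM in any YND mouse and so passed the count filter through groups in which it was higher. The counts and median of this list against YND are therefore a description and are not read against all tested genes. In OHFD against OND 1 was called higher (Cyp4a14, 2.25, adjusted p = 0.0309, edgeR) and in OND against YND 1 (Atp6v0d2, 2.32, adjusted p = 0.00303, edgeR), with 0 lower in both. In OHFD against YND 5 were higher and 0 lower, and against YHFD 0 were called. The 10 untested genes include the strongly female genes Sult2a1, Sult3a1, A1bg, Cyp3a16, Cyp3a41a, Cyp3a41b and Cyp3a44, whose highest level in any of the 24 mice was 4.19 CPM (A1bg in OHFD).

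The third list held genes with more transcript in male liver. Of 16 tested, 6 were called lower and 0 higher in YHFD and again 6 lower and 0 higher in OND, both against YND, which the comparisons share. List medians were -0.97 and -0.83. Cyp4a12a, a male P450, was lower by -1.40 in YHFD (adjusted p = 0.00449, edgeR quasi-likelihood test) and by -1.41 in OND (adjusted p = 0.00335, edgeR). Elovl3, a fatty acid elongase, was lower by -1.89 and -1.58 (adjusted p = 0.0251 and 0.0285, edgeR), Gstp1 by -1.94 in YHFD (adjusted p = 0.000224, edgeR) and Cyp2d9 by -0.78 in OND (adjusted p = 0.0271, edgeR). In OHFD against OND 1 was lower (Gstp1, -1.05, adjusted p = 0.0307, edgeR) and the list median was 0.06. In OHFD against YND 6 were lower and 0 higher, and against YHFD 0 were called. These lists were not tested as sets.

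**Figure D5:**
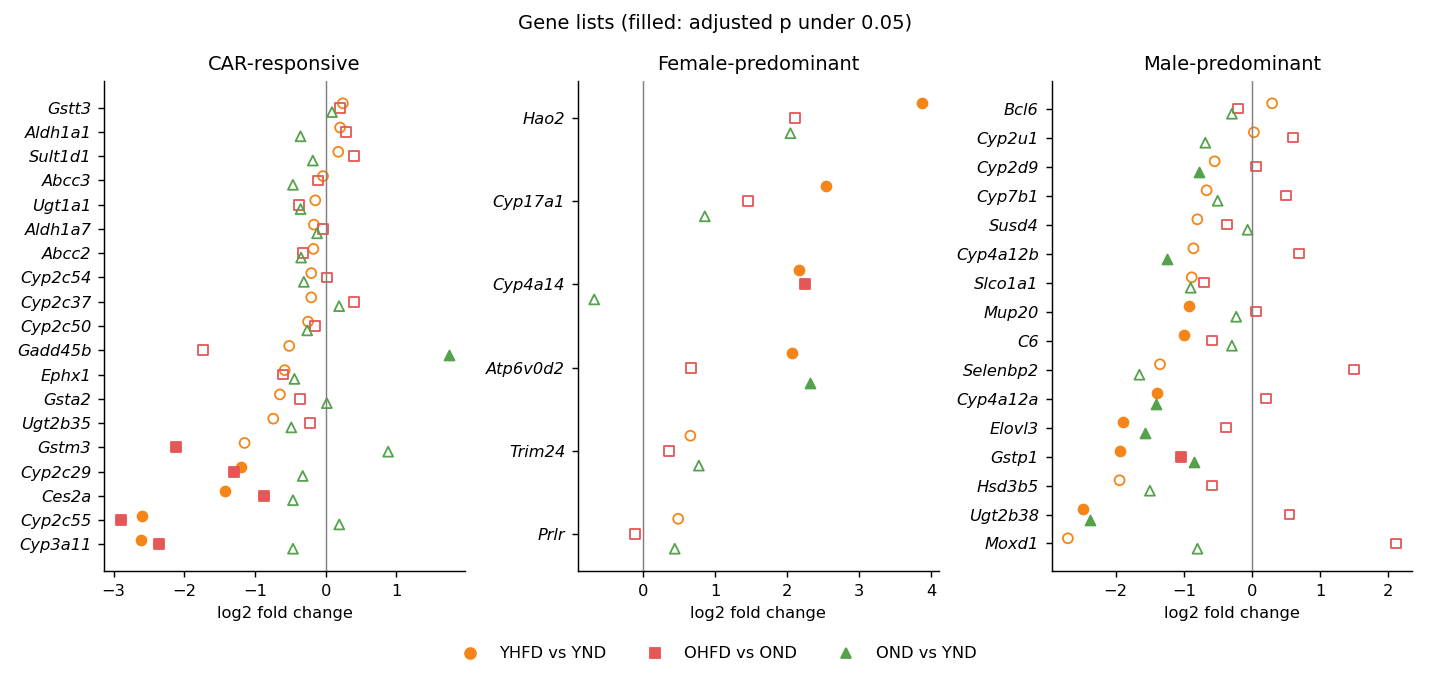
Log2 fold change (horizontal axis) of each tested gene of the CAR-responsive, female-predominant and male-predominant lists in YHFD against YND (circles), OHFD against OND (squares) and OND against YND (triangles), filled where the adjusted p in edgeR's test was under 0.05. Called CAR-responsive genes lie left of 0 on HFD in both ages, and called male-predominant genes lie left of 0 in YHFD and in OND.

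The regulators themselves were tested for their transcripts. Of 21 tested regulators and electron donors, 0 were called in either diet comparison, between OND and YND, between OHFD and YHFD or for the interaction, by edgeR. Nr1i3, which encodes CAR, differed by 0.63 (SE 0.24, adjusted p = 0.137, edgeR quasi-likelihood test) in YHFD and by 0.23 (SE 0.25, adjusted p = 0.639, edgeR) in OHFD against OND. Por differed by 0.28 and 0.38 (adjusted p = 0.632 and 0.467, edgeR). Other differences in YHFD, also not called, included those of the PAR bZIP factors Dbp (2.12, SE 1.05, adjusted p = 0.247, edgeR), Tef (1.01, adjusted p = 0.155, edgeR) and Hlf (0.57, adjusted p = 0.0693, edgeR) and of Onecut1 (-1.40, adjusted p = 0.104, edgeR). In OHFD against OND these values were 1.02, 0.51, 0.43 and -0.66. Between OHFD and YND 1 was called higher and 5 were called lower, where 17.3% and 12.9% of tested genes were. The lower ones were Foxa1 (-0.99), Hnf4a (-0.73), Stat5b (-0.58), Stat5a (-0.46) and Nr1i2 (-0.45), with adjusted p from 0.00534 to 0.0483 in edgeR's test.

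Pericentral and periportal markers were followed because these P450 genes are not evenly spread over the liver lobule. Of 10 pericentral markers, 3 were higher in YHFD (Glul, Slc1a2 and Lect2) and 2 in OHFD against OND (Rhbg and Lect2), and 0 were lower. Their summed level was 7218 to 9695 CPM in YND, 8910 to 14253 in YHFD, 5176 to 9063 in OND and 9306 to 13862 in OHFD. Of 9 periportal markers, 1 was lower in YHFD and 0 were called in OHFD against OND. In OND against YND 1 pericentral marker was higher and 1 periportal marker lower, and in OHFD against YND 5 pericentral markers were higher and 1 lower, and 3 periportal markers were lower. Between OHFD and YHFD 0 of either were called. The part of zonation in the levels of the 7 genes was not tested.

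Of 9 further Cyp2a, Cyp2b, Cyp2f, Cyp2g, Cyp2s and Cyp2t genes on chromosome 7, 3 of them pseudogenes, 4 had at least 10 counts in total. They were Cyp2f2, Cyp2g1, Cyp2t4 and Cyp2a21-ps, of which Cyp2f2 and Cyp2g1 were tested. Cyp2f2, a periportal P450, was lower in OHFD than in YND (-0.90, SE 0.32, adjusted p = 0.0374, edgeR quasi-likelihood test), and neither gene was called in another comparison.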

How the data were processed

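Hepatocyte RNA-seq of 24 male mice was analysed, grouped by the sample labels into YND, YHFD, OND and OHFD (6 each). The ages are those of the labels. The authors deposited whole-number read counts per gene, made per the labels and the study's methods with 2-pass STAR 2.7.3a on mm10 with the Gencode annotation, SAMtools and HTSeq 0.11.2. Read length and strand are not given in the sources used here. They also deposited FPKM values per gene, from CuffLinks and adjusted between batches. Set beside the counts, these FPKM values were scaled to the whole gene span, introns included (median log2 ratio 0.04 to 0.14 by span, -2.39 to -2.30 by exons), so levels of different genes were compared as CPM per kb of the longest coding transcript (GENCODE, GRCm38). Columns without a matching sample numbered 0 in both tables.

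Counts were fitted with edgeR 4.0.16 (R 4.3.3): TMM, filterByExpr by group, group and batch over 24 mice, quasi-likelihood F tests and Benjamini-Hochberg adjustment. The deposited counts set the precision for low genes, with totals of 9200332 to 22185069 per mouse, and come from amplified reads, so counting error is a lower limit. log2 CPM used a prior count of 2. Each mouse is 1 sample. The code was tested on simulated data. Alternatives were RLE, no count filter, no batch term, the replicate number as a block, each batch alone, only the groups compared, summed copies, DESeq2 1.42.0, limma 3.58.1 on log2(FPKM + 1) and log2(FPKM + 0.1), and leaving out each mouse. Promoter sequences are from RefSeq (GRCm38.p6), in which 7 of the 7 genes matched by symbol, and were aligned with Biopython 1.88. Figures used Python 3.11.15 and matplotlib 3.10.9.

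The genes named are the 7, the neighbouring genes of their families with at least 10 counts, the regulators where a result turns on them, at most 3 genes with the smallest adjusted p of each of the CAR, female and male lists per comparison, and the 3 genes most like each of the 7. Hao2, Gstm3 beside its diet value, and the called hepatocyte and zonation markers were named after their values were seen. Some genes of the lists are not reported here by name. The genes, lists and comparisons were chosen with earlier results of these data known. The replicate numbers 1 to 6 occur in each group but belong to different mice.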

Additional observations from a re-analysis of the deposited data

Results flagged for a closer look

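A mouse was looked at again when it stood far from the other 5 of its group. This was judged by the gap to its nearest neighbour over the range of the group, with a limit that chance passes in about 1 of 20 groups, and 27 groups of 6 mice were examined. YND replicate 2 had the highest Cyp2b10 level of its group, 3.66 on the log2 CPM scale, above the other 5 YND mice, which lay close together. OND replicate 4 had the lowest Cyp2a5 level of its group, 5.07 on the log2 CPM scale. That mouse was also the lowest in OND for the other 6 genes and for the summed hepatocyte markers, and it was the highest of all mice for the summed leukocyte markers. The part of either library in a result is given by the fits without it.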

How the results depend on the processing

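The numbers of the 7 genes called changed with some settings, not all of which are listed. Single calls also changed under other settings, among them Cyp2a22 in OND against YND, called without a count filter (0.83, adjusted p = 0.00455, edgeR). The share of all genes called under the same setting stands in brackets. Counts against YND are again a description, since Cyp2b9, Cyp2b13 and Cyp2a4 passed the count filter of the main fit through other groups. For YHFD against YND (5 called, 3.5%) they were 3 in batch 1 alone (0.96%), 1 in batch 2 alone (0.0632%), and 2 and 3 by limma on log2(FPKM + 1) and log2(FPKM + 0.1) (0.579% and 0.682%). With only the 2 groups the count was also 5 (18.6%), but not of the same 5 genes, since Cyp2b13 and Cyp2a4 did not pass the count filter and Cyp2a5 and Cyp2a12 were called. For OHFD against OND (2, 3.01%) they were 6 without a count filter (3.43%), 1 and 0 in batches 1 and 2 alone (0.111% and 0.112%), and 0 with only the 2 groups compared (0.119%). For OND against YND (3, 8.5%) they were 1 without batch (4.62%), 1 and 0 in batches 1 and 2 alone (0.687% and 0.014%), 1 with only the 2 groups (10.8%), where Cyp2b13 and Cyp2a4 again did not pass the filter, 0 and 0 by limma (0.149% and 0.564%) and 0 with copies summed (8.46%). For OHFD against YHFD (0, 2.24%) they were 2 without a count filter (3.82%) and 1 and 1 by limma (0.126% and 0.217%). For OHFD against YND (6, 30.2%) they were 3 in batch 2 alone (4.33%), and for the interaction (0, 0.0%) 4 without a count filter (1.82%) and 1 by DESeq2 (0.0217%). Leaving out 1 mouse at a time gave 3 to 6, 1 to 3, 2 to 3, 0 to 1, 5 to 6 and 0 to 0 in the same order. Batches alone hold fewer mice, and limma on FPKM compresses low genes, since the pseudocount is large beside their FPKM. Without a count filter 32336 genes were fitted and 587 were called for the interaction, against 0 with it. The cause of the other changes was not tested.

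The replicate numbers did not pair the mice. Same-numbered mice of different groups had a mean correlation of 0.182 in their deviations from group means, over 0.1 in 21 of 36 pairs, and of -0.00199 once batch means were removed. With the replicate number as a block, 4 of the 7 genes and 3.28% of all tested genes were called in OHFD against OND, with Cyp2a22 (1.66, adjusted p = 0.0238, edgeR) and Cyp2b13 (3.84, adjusted p = 0.0433, edgeR) added. Cyp2a12 became called in OND against YND (-0.58, adjusted p = 0.0491, edgeR), and the block changed no other call.

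Signs changed only for values that were not called. In batch 2 alone the OHFD to OND difference was -0.72 for Cyp2a4 and -0.0438 for Cyp2a5, and the OHFD to YHFD difference of Cyp2a5 was -0.72. The OHFD to YHFD difference of Cyp2b9 (-0.02) was 0.0114 with RLE, 0.19 with the block, 0.24 in batch 2, 0.0579 with only the 2 groups and 0.00364 and 0.0736 by limma, and that of Cyp2b10 was -0.12 in batch 1. The OHFD to YND difference of Cyp2a12 was -0.0457 without a count filter, -0.0179 with the block and -0.24 in batch 2. The interaction became 0.64 and 1.501 by limma for Cyp2b13 and 0.11 by limma with a pseudocount of 1 for Cyp2a4. For Cyp2a5 it became 0.11 with the block, 0.32 in batch 1 and 0.11 and 0.12 by limma. Without 1 mouse, the values of those that changed sign ran from -0.77 to 0.13 for Cyp2b10 in OND against YND, and in OHFD against YHFD from -0.31 to 0.26 for Cyp2b9, -0.17 to 0.52 for Cyp2b10 and -0.11 to 0.36 for Cyp2a5. They ran from -0.0753 to 0.0890 for Cyp2a12 in OHFD against YND and from -0.0705 to 0.858 for the Cyp2b10 interaction. Depth limits the values of Cyp2b13, Cyp2a4 and Cyp2b9 in YND, where each was under 1 CPM.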
